A study of Mus musculus with 6 samples.

Results

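Gp130, the shared signal transducer of the IL-6 cytokine family, is not part of the receptors for interleukin-10 (IL-10), IL-19, IL-20, IL-22 and IL-24, although those receptors also signal through STAT3. The 10 genes examined here encode these receptors and their ligands, and they were taken by name from the 56748 genes listed for each uterus. They comprise the receptor genes *Il20rb*, *Il20ra*, *Il22ra1*, *Il22ra2*, *Il10ra* and *Il10rb* and the ligand genes *Il10*, *Il19*, *Il20* and *Il24*. The set was chosen by gene family and selected on the measured *Il20rb* counts of this same contrast, so its difference between the groups is given as a description with no test. The differences of the other members are given in the same way, with intervals for counting error added for *Il22ra1* and *Il20*.

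RNA was sequenced from 3 control and 3 *Gp130* ecKO uteri of pregnant females on a background labelled C57BL/6 (C57BL/6J in the methods), collected on day 4 of pregnancy at 1600 h, shortly before embryo attachment. *Gp130* ecKO females, over 8 weeks old, carried *Ltf*-iCre and floxed *Gp130* on both alleles. The labels call the control females WT, while the methods allow floxed females without iCre as well as wildtype females, and which of these each control was is not stated. *Ltf*-iCre acts in the uterine epithelium, and *Ltf* is also expressed in some neutrophils and macrophages, whereas the RNA was not from sorted epithelium. The labels give the source as uterus, and the design text speaks of endometrium. The labels number the uteri and do not say that each came from a separate female, so p-values measure the spread between these samples. Total expected counts ranged from 13960748 in control 3 to 25906443 in control 2, so values of weakly expressed genes were least precise in control 3. *Gp130* itself, listed as *Il6st*, showed 631, 678 and 452 CPM among controls 1 to 3 in order, against 388, 349.8 and 362 CPM among *Gp130* ecKO 1 to 3, where CPM are counts per 1000000 of the scaled library. The groups did not overlap for this gene, and its log2 fold change was −0.68 (SE 0.21, edgeR adjusted p = 0.120, and DESeq2 adjusted p = 0.0346 with less than 2-fold change). Marker genes of epithelium, stroma, smooth muscle, endothelium and leukocytes were all detected, and the smooth muscle markers summed to between 339 and 2209 CPM without following the groups.

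These receptors belong to the class II cytokine receptor family, and each works as a pair of chains. IL-20RA with IL-20RB forms the type I IL-20 receptor, which binds IL-19, IL-20 and IL-24. IL-22RA1 with IL-20RB forms the type II IL-20 receptor for IL-20 and IL-24, and IL-22RA1 with IL-10RB forms the receptor for IL-22. IL-10RA with IL-10RB binds IL-10, and IL-22RA2 is a secreted protein that binds IL-22 and keeps it from its receptor. IL-10RA is found mainly on leukocytes and IL-22RA1 mainly on epithelial cells. JAK1 and TYK2 are the kinases of these receptors, STAT3 is their main transcription factor, and SOCS3 is a feedback inhibitor that STAT3 induces.

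*Il20rb* (ENSMUSG00000044244) lies on the minus strand of chromosome 9 of GRCm39 from 100338496 to 100368841. The stretch of 250 bases before its outermost annotated start (chr9:100368842-100369091, minus strand, GRCm39, with the start from GENCODE M39) is shown because *Il20rb* was the receptor gene that separated the groups most.
Il20rb upstream: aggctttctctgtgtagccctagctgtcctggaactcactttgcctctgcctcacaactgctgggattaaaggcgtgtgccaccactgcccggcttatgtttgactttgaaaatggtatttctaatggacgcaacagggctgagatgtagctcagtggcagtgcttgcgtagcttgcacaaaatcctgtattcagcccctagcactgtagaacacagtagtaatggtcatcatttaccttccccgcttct
The sequence is printed 5′ to 3′ and has no capitals because none of the letters searched for occurs in it. The searches, on both strands, were for the STAT form TTCNNNGAA and the same form with a gap of 4 bases, the estrogen response element (GGTCA and TGACC with a gap of 3 bases), the progesterone and glucocorticoid response element (GNACA and TGTNC with a gap of 3 bases), the AP-1 form TGANTCA and the GC box GGGCGG. The window of the same length before *Il20ra* also held none of them. Among the 21770 windows of protein-coding genes, 7.82% held TTCNNNGAA, 5.97% the form with the wider gap, 0.0781% the estrogen element, 0.308% the progesterone element, 6.46% the AP-1 form and 29.9% the GC box. The absence of a match says only that these letters are not in this window.

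All *Gp130* ecKO uteri had more *Il20rb* RNA than any control uterus. The gene had 5.66, 6.63 and 6.40 CPM among controls 1 to 3 in order, against 29.7, 26.2 and 34.3 CPM among *Gp130* ecKO 1 to 3. The control values lay close together and the groups were far apart. The means were 6.23 ± 0.51 CPM (SD, n = 3) and 30.1 ± 4.1 CPM (SD, n = 3). The edgeR fit put this at 4.82-fold, which is 2.27 on the log2 scale with a standard error (SE) of 0.22. These values rested on 96 to 172 counts per control uterus and 658 to 827 counts per *Gp130* ecKO uterus. In the control the SD of 0.51 CPM was below the 0.55 CPM that counting alone gives at this depth, and in *Gp130* ecKO the SD of 4.06 CPM was above the counting value of 1.12 CPM. Leaving out single uteri gave log2 fold changes of 2.19 to 2.37. None of the 75-base stretches of its transcripts occurs in another annotated gene. In such bulk RNA, more cells of a type and more RNA per cell cannot be told apart.

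**Figure D1:**
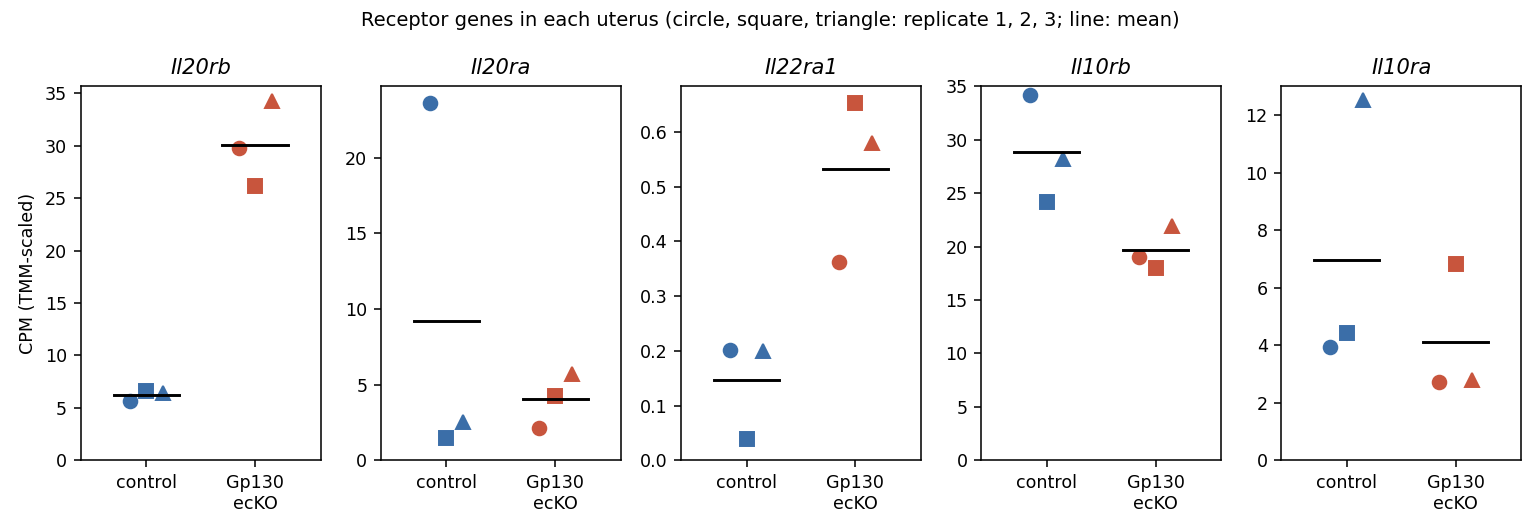
CPM of the 5 receptor genes with counts in all uteri, 1 panel per gene with its own linear axis from 0. Symbols are single uteri and lines are group means. *Il20rb*, *Il22ra1* and *Il10rb* do not overlap between the groups, control 1 stands alone for *Il20ra*, and control 3 is highest for *Il10ra*.

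Of the 10 members, 4 passed the filter on low counts, and 1 of those 4, *Il20rb*, is among the genes called, which means an FDR under 0.05 and more than 2-fold change in edgeR's quasi-likelihood test. Among all 16605 tested genes 0.157% were called, 0.126% higher and 0.0301% lower in *Gp130* ecKO. Since *Il20rb* was chosen with this contrast known, its place among them is not a result and nothing is read from that count. It was not among the genes called when any 1 uterus other than control 2 was left out. DESeq2 called 9.91% and edgeR's exact test 7.54% of the genes they tested, and these shares, with the 25% of tested genes at an unadjusted p below 0.05, are the background for every gene list given here. The 6 members under the filter were *Il22ra1*, *Il22ra2* and the 4 ligand genes. Among the 4 tested members, *Il20rb* and *Il10rb* had groups without overlap in CPM, against 31.3% of all tested genes.

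The summed level of epithelial markers also lay apart between the groups. By staining, the paper found KRT8 and CDH1 higher in the epithelium of *Gp130* ecKO, and *Krt8* and *Cdh1* are among the markers. The sum is therefore not a measure of epithelial content alone. The 7 epithelial markers together had 2783, 2876 and 1866 CPM among controls 1 to 3 in order, against 5761, 4139 and 4437 CPM among *Gp130* ecKO 1 to 3. Of the 7, 6 had a log2 fold change above 0, 4 did not overlap between the groups (31.3% of all tested genes did not), and none was called by edgeR's quasi-likelihood test, where 4 had an unadjusted p below 0.05 (25% of all tested genes had) and DESeq2 and edgeR's exact test called 3 each. Per 1000 CPM of these markers, *Il20rb* had 2.04, 2.31 and 3.43 CPM among controls against 5.16, 6.33 and 7.73 CPM among *Gp130* ecKO uteri, a ratio of group means of 2.47. Against the 7 markers singly, a comparison completed after their values had been seen, this ratio was above 1 for 6, and the groups did not overlap for 5. It was highest relative to *Epcam*, the epithelial adhesion molecule gene, at 5.03, and was 1.86 relative to *Krt8*, a keratin of simple epithelia. The log2 fold changes of *Epcam* and *Krt8* themselves were −0.19 and 1.32. *Krt19*, another keratin of simple epithelia, was the exception to ratios above 1. It had 86.0, 382 and 109 CPM among controls against 1066, 744 and 829 CPM among *Gp130* ecKO uteri (log2 fold change 2.19, SE 0.57). That fold change was close to that of *Il20rb* and depended on control 2. *Il20rb* per 100 CPM of *Krt19* was 6.59, 1.73 and 5.89 CPM among controls against 2.79, 3.52 and 4.13 CPM among *Gp130* ecKO uteri. The ratio of group means was 0.74, and the groups overlapped through control 2 alone. Markers of stratified squamous epithelium, a tissue in which IL-20 receptors are well studied, summed to between 1.70 and 5.53 CPM in the control and between 3.35 and 10.6 CPM in *Gp130* ecKO. Of these 7 markers 3 were tested and none was called by edgeR's quasi-likelihood test, while 2 had an unadjusted p below 0.05, both higher and both without overlap, and DESeq2 and the exact test called 1 each. *Krt13*, a keratin of such epithelia, had 0.081, 0.54 and 0.20 CPM among controls against 3.98, 1.58 and 4.60 CPM among *Gp130* ecKO uteri (log2 fold change 3.54, edgeR adjusted p = 0.0677), and *Trp63*, a transcription factor of basal cells, had a log2 fold change of 1.46 (edgeR adjusted p = 0.119). The third tested marker, *Sprr1a*, overlapped between the groups and had a log2 fold change of −1.41 (edgeR adjusted p = 0.491). *Krt5*, a keratin of basal cells, had 0 counts in 5 of the 6 uteri. Since *Il20rb* was chosen on its counts in this contrast, these ratios are a description and no test. A marker with a fold change well below that of *Il20rb* gives a ratio above 1 by construction. The part of either epithelium in the *Il20rb* difference was not tested.

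**Figure D2:**
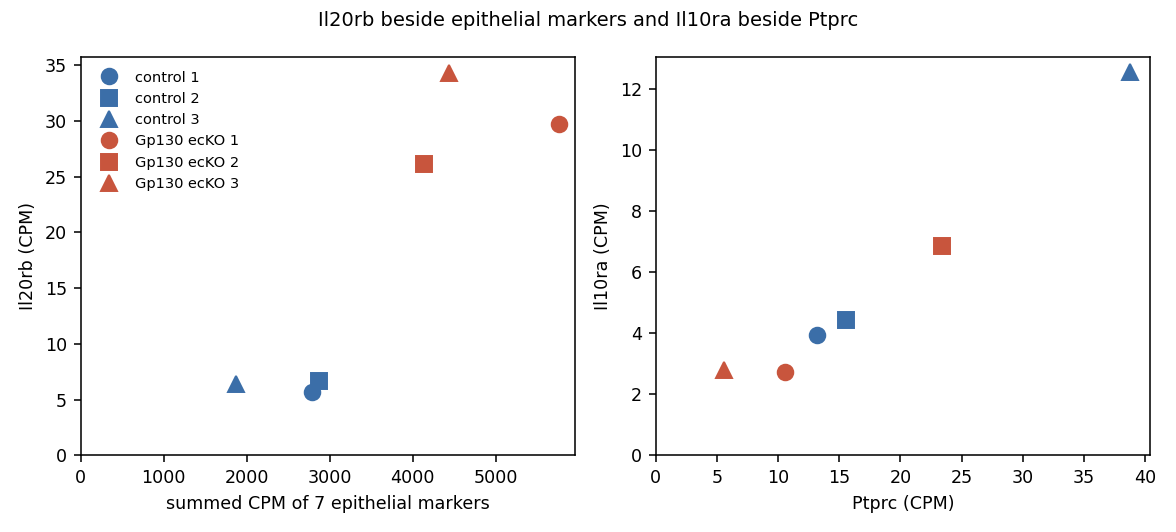
Left, *Il20rb* CPM against the summed CPM of 7 epithelial markers. Right, *Il10ra* CPM against CPM of *Ptprc*, the leukocyte antigen CD45. Each symbol is 1 uterus, and both axes are linear from 0. *Gp130* ecKO uteri lie higher on both axes at left, and control 3 lies highest on both at right.

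*Il20ra* (ENSMUSG00000020007), which encodes the partner chain of IL-20RB, lies on the plus strand of chromosome 10 from 19588037 to 19639086. It had 23.6, 1.47 and 2.53 CPM among controls 1 to 3 in order, against 2.12, 4.23 and 5.72 CPM among *Gp130* ecKO 1 to 3. Control 1 was 16.1 times control 2, while the other 5 uteri lay between 1.47 and 5.72 CPM. The counts behind these values were 584 in control 1, 38 in both other controls, and 47, 110 and 138 for *Gp130* ecKO 1 to 3. The control SD of 12.5 CPM was far above the 0.63 CPM that counting alone gives. Over all 6 uteri the log2 fold change was −1.20 (SE 0.98), and without control 1 it was 1.08, so the direction of *Il20ra* was set by 1 uterus. The groups overlapped with control 1 (2.12 CPM in *Gp130* ecKO 1 against 2.53 CPM in control 3) and also without it.

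The genes whose pattern over the 6 uteri was most like that of *Il20ra* were looked up after its values had been seen. *Slc39a8*, which encodes a zinc and manganese transporter, was the nearest, with 759 CPM in control 1 and between 71.2 and 193 CPM in the other uteri. Its root mean square difference from *Il20ra* was 0.28 on the centred log2(CPM + 0.5) scale over 6 uteri. The next 4 were *Gm43429*, *Gm14137*, *Gm43428* and *Rpl7a-ps5*, at differences from 0.46 to 0.51. *Gm43429* and *Gm43428* lie within the bounds of *Slc39a8* on chromosome 3. Control 1 also had the highest summed CPM of the gland markers among the controls, 898 against 218 and 105, whereas the highest of all uteri was *Gp130* ecKO 1 with 6822. *Prss29* made up 523 of the 898 CPM and 6546 of the 6822 CPM. Of the 5 gland markers, *Prss29*, *Spink1* and *Wfdc15b* were highest among the controls in control 1, *Spink1* with 327 CPM against 99.7 and 39.7 CPM and *Wfdc15b* with 12.9 CPM against 9.83 and 4.80 CPM. *Foxa2* and *Cxcl15* were highest among the controls in control 2, with 39.3 and 67.9 CPM against 16.3 and 18.2 CPM in control 1. The part of any cell type in the *Il20ra* value of control 1 was not tested.

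Levels of the chains were compared per length, as the deposited TPM (transcripts per 1000000). *Il20rb* had 4.09, 5.56 and 5.60 TPM among controls 1 to 3 in order, against 26.5, 25.2 and 26.7 TPM among *Gp130* ecKO 1 to 3. *Il20ra* had 14.7, 0.94 and 1.73 TPM among controls against 1.45, 3.14 and 3.59 TPM among *Gp130* ecKO uteri. *Il20ra* was thus the less abundant chain in 5 of the 6 uteri and the more abundant one in control 1. The ratio of *Il20rb* to *Il20ra* was 0.28, 5.91 and 3.24 among controls 1 to 3 in order, against 18.3, 8.04 and 7.43 among *Gp130* ecKO 1 to 3. The level of whichever chain was lower in a uterus was 2.25 ± 1.64 TPM (SD, n = 3) in the control and 2.73 ± 1.13 TPM (SD, n = 3) in *Gp130* ecKO, and these values overlapped. Among controls 1 to 3 in order it was 4.09, 0.94 and 1.73 TPM. The control mean was thus raised by control 1, the one uterus where the lower chain was *Il20rb*. RSEM's mean transcript length of *Il20rb*, weighted by abundance, was 1781 bases in control 1 and between 1624 and 1664 bases in the other uteri, where its annotated transcripts span 749 to 4069 bases.

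**Figure D3:**
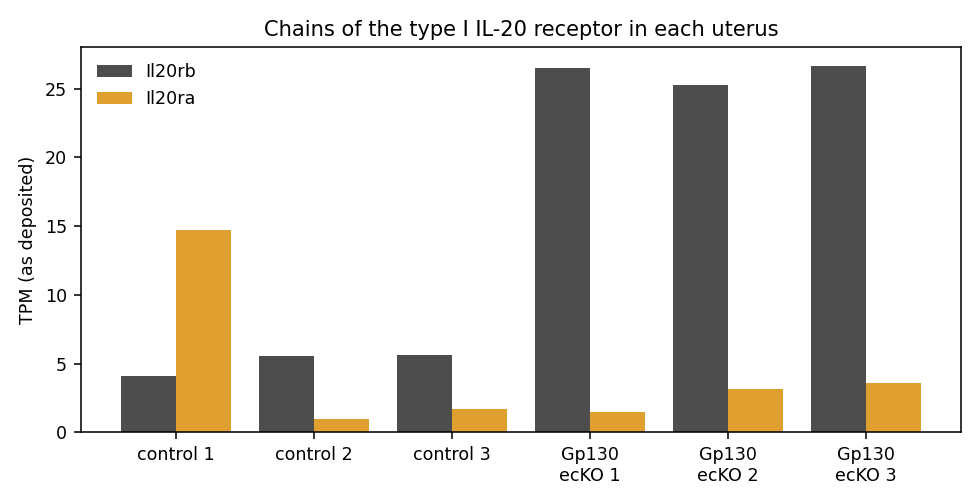
Deposited TPM of *Il20rb* (grey) and *Il20ra* (yellow) in each uterus, as bars from 0. *Il20rb* is between 25.2 and 26.7 TPM in *Gp130* ecKO, and *Il20ra* exceeds *Il20rb* only in control 1.

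*Il22ra1* (ENSMUSG00000037157, chromosome 4, 135455428 to 135479451), the other partner of IL-20RB, was scarce. It had 5, 1 and 3 counts among controls 1 to 3 in order, against 8, 17 and 14 counts among *Gp130* ecKO 1 to 3, which is 0.20, 0.039 and 0.20 CPM against 0.36, 0.65 and 0.58 CPM. The groups did not overlap, and the gene fell under the filter. Over the summed counts, 9 against 39, the ratio of *Gp130* ecKO to control was 3.94, with an exact binomial 95% interval of 1.88 to 9.24 that covers counting error only. *Il22ra2*, which encodes the IL-22 binding protein, had 0 counts in all 6 uteri. A count of 0 allows up to 3 counts per uterus, which is 0.115 to 0.200 CPM depending on the library.

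*Il10rb* (ENSMUSG00000022969, chromosome 16, 91203012 to 91224600) encodes the chain that the IL-10, IL-22 and type III interferon receptors share. It had 34.2, 24.1 and 28.2 CPM among controls 1 to 3 in order, against 19.0, 18.0 and 21.9 CPM among *Gp130* ecKO 1 to 3. All *Gp130* ecKO values were below all control values, by a smaller margin than for *Il20rb* and in the opposite direction. The log2 fold change was −0.55 (SE 0.21), and leaving out single uteri gave −0.64 to −0.38. Of its 75-base stretches, 23.5% also occur in another gene on the same strand, and the readthrough gene *Gm21970*, which overlaps it, received 18.5 counts over all 6 uteri, so the division of reads between them by RSEM is uncertain. Markers of stroma and endothelium had log2 fold changes of the same sign. Of the 6 stromal markers, all had a log2 fold change below 0, 4 did not overlap (31.3% of all tested genes did not), none was called by edgeR's quasi-likelihood test, 4 had an unadjusted p below 0.05 (25% of all tested genes had), and DESeq2 and the exact test called 1 each. Their sum was 2540 to 3512 CPM in the control and 1503 to 1990 CPM in *Gp130* ecKO, while the 5 endothelial markers, all below 0 with 5 at an unadjusted p below 0.05 and none called by edgeR's quasi-likelihood test (4 by DESeq2, 3 by the exact test), summed to 342 to 820 CPM and 185 to 332 CPM. The part of these cell types in the *Il10rb* values was not tested.

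*Il10ra* (ENSMUSG00000032089, chromosome 9, 45165132 to 45180563), the ligand-binding chain for IL-10, had 3.92, 4.43 and 12.5 CPM among controls 1 to 3 in order, against 2.71, 6.85 and 2.78 CPM among *Gp130* ecKO 1 to 3. Control 3 was the highest and the groups overlapped. The log2 fold change was −0.73 (SE 0.58), and −0.02 without control 3. *Ptprc* gave the same order of uteri except for *Gp130* ecKO 1 and 3, with 13.1, 15.6 and 38.7 CPM among controls against 10.6, 23.4 and 5.55 CPM among *Gp130* ecKO uteri. *Il10ra* per *Ptprc* was 0.30, 0.28 and 0.32 among controls against 0.26, 0.29 and 0.50 among *Gp130* ecKO uteri. The highest control exceeded the lowest 3.19-fold in *Il10ra* CPM, while per *Ptprc* the controls lay between 0.28 and 0.32. Of the 7 macrophage markers, 6 had a log2 fold change below 0, and their sum was 180, 241 and 269 CPM among controls against 85.0, 199 and 127 CPM among *Gp130* ecKO uteri. Among the 5 leukocyte markers, 4 were below 0 and *Laptm5* was above it. Neither list had a gene called by edgeR's quasi-likelihood test, with 1 macrophage and 2 leukocyte markers at an unadjusted p below 0.05, and DESeq2 and the exact test called 1 macrophage marker each and no leukocyte marker. The part of leukocyte content in the *Il10ra* values was not tested beyond this ratio.

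**Figure D4:**
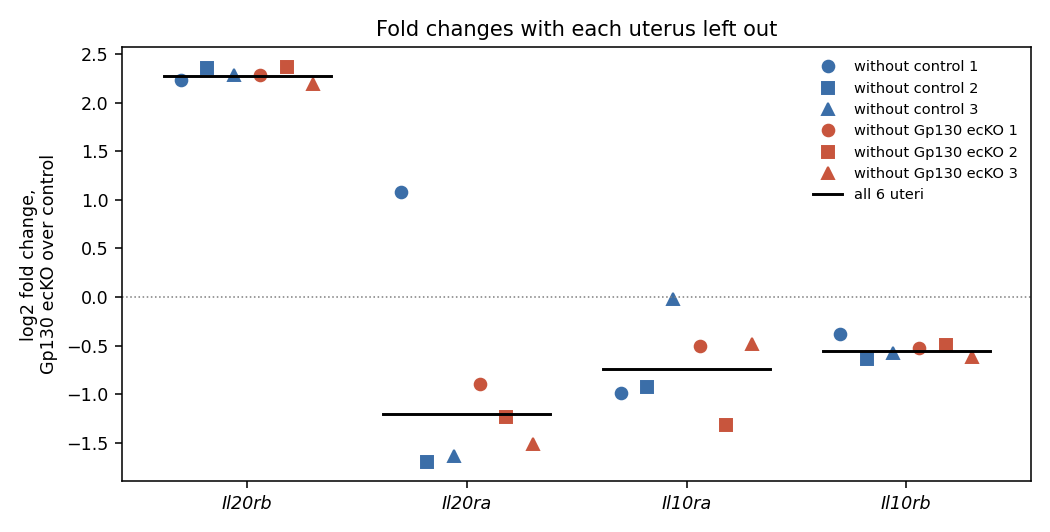
Log2 fold change of *Gp130* ecKO over control for the 4 members that passed the filter, over all 6 uteri (line) and after removing single uteri (symbols, coloured by the group of the uterus left out). *Il20rb* stays between 2.19 and 2.37, *Il20ra* goes above 0 without control 1, and *Il10ra* comes to −0.02 without control 3.

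By mean TPM, the order of the members in the control was *Il10rb* (22.2 ± 3.2, SD, n = 3), *Il20ra* (5.79 ± 7.73), *Il20rb* (5.08 ± 0.86), *Il10ra* (2.80 ± 2.14), and then the scarce members. *Il20ra*, *Il20rb* and *Il10ra* overlapped in their values there, and without control 1 *Il20rb* came second. In *Gp130* ecKO the order was *Il20rb* (26.1 ± 0.8), *Il10rb* (15.2 ± 0.4), *Il20ra* (2.73 ± 1.13) and *Il10ra* (1.75 ± 1.18). The lowest *Il20rb* value there, 25.2 TPM, was above the highest *Il10rb* value, 15.6 TPM, while *Il20ra* and *Il10ra* overlapped. The deposited FPKM gave *Il20rb* the same places.

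The ligand genes lie together on chromosome 1 from 130809811 to 130952711, in the order *Il24*, *Il20*, *Il19* and *Il10*, and all were at the limit of detection. *Il20* had 5, 3 and 2 counts among controls 1 to 3 in order, against 3, 0 and 0 counts among *Gp130* ecKO 1 to 3. The ratio of the summed counts for *Il20*, 3 against 10, was 0.27 after scaling (exact binomial 95% interval 0.048 to 1.06, counting error only), and this interval includes a ratio of 1. *Il10*, the anti-inflammatory cytokine of many leukocytes, had 0, 4 and 1 counts among controls against 0, 1 and 1 among *Gp130* ecKO uteri. *Il19* had 0, 3 and 0 counts among controls against 1, 0 and 1 among *Gp130* ecKO uteri. *Il24* had 2 counts in control 2 and 0 in the other uteri. Of the further ligands of the family, *Il22*, *Il22b* and *Ifnl2* had 0 counts in all uteri and *Ifnl3* had 2 counts in control 1. No ligand gene of the members exceeded 5 counts in any uterus.

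The family members for interferons and for coagulation factor VII were taken for comparison from a list of 6 genes. None was called by edgeR's quasi-likelihood test, 3 had an unadjusted p below 0.05 (25% of all tested genes had), and DESeq2 and the exact test called 1 each. Their median log2 fold change was −0.07, against −0.05 over all tested genes. *F3*, the gene of tissue factor, had 116, 115 and 60.8 CPM among controls against 327, 245 and 281 CPM among *Gp130* ecKO uteri, which is a fitted log2 difference of 1.55 (SE 0.28, edgeR adjusted p = 0.0635, and 0.0379 without control 2). Without any 1 of the other uteri the edgeR adjusted p of *F3* was from 0.112 to 0.190. *Ifnar2*, a chain of the type I interferon receptor, had 63.0, 50.3 and 40.7 CPM among controls against 29.6, 36.6 and 39.3 CPM among *Gp130* ecKO uteri (log2 fold change −0.55, edgeR adjusted p = 0.174). For both genes the groups did not overlap.

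Several of these receptor genes are neighbours. On chromosome 16 *Ifnar2*, *Il10rb*, *Ifnar1* and *Ifngr2* follow each other, with 0.289 kb, 57.3 kb and 38.1 kb between them, and their log2 fold changes were −0.55, −0.55, −0.25 and 0.86. *Ifngr2*, a chain of the interferon-γ receptor, thus had the opposite sign to its 3 neighbours, with 82.0, 113 and 87.2 CPM among controls against 167, 184 and 163 CPM among *Gp130* ecKO uteri (edgeR adjusted p = 0.0732). On chromosome 10 *Ifngr1*, *Il22ra2* and *Il20ra* follow each other, and on chromosome 4 *Il22ra1* lies 19.9 kb from *Ifnlr1*, the interferon-λ receptor gene (log2 fold change 0.11, edgeR adjusted p = 0.807).

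The surroundings of *Il20rb* were examined because position had no part in choosing it. Within 0.5 Mb of its start the annotation places 15 other listed genes, of which 10 had no counts in any uterus and 3 were tested. *Nck1*, the adaptor protein gene next to it, had a log2 fold change of −0.07 (edgeR adjusted p = 0.853), and 0.21 without control 1. *Stag1*, a cohesin subunit gene, had 0.26 (edgeR adjusted p = 0.368). *Slc35g2* had 14.2, 5.05 and 6.80 CPM among controls against 3.84, 3.00 and 5.02 CPM among *Gp130* ecKO uteri, which is a fitted log2 difference of −1.14 (edgeR adjusted p = 0.176), and of −0.55 without control 1. None of the 3 was called by edgeR's quasi-likelihood test, by DESeq2 or by the exact test, and 1, *Slc35g2*, had an unadjusted p below 0.05.

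The genes with a pattern over the 6 uteri most like that of *Il20rb* were, in order, *Gm37240*, *Fam83b*, *Tnfsf13*, *Dab1* and *Ankrd46*, at root mean square differences from 0.21 to 0.25 on the centred log2(CPM + 0.5) scale. *Tnfsf13*, which encodes the B cell cytokine APRIL, had 1.66, 1.39 and 2.00 CPM among controls against 6.51, 7.31 and 9.08 CPM among *Gp130* ecKO uteri. *Fam83b* had 0.28, 0.66 and 0.33 CPM among controls against 2.98, 4.15 and 4.35 CPM among *Gp130* ecKO uteri. *Dab1*, which encodes an adaptor of reelin signalling, had 12.6 to 13.5 CPM in the control and 43.9 to 45.3 CPM in *Gp130* ecKO. A step between the groups is what the measure selects, so the groups of these genes were bound to lie apart.

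Downstream of the receptors, the list of 8 kinases and STATs had 1 called gene, against 0.157% of all tested genes. This list and those below were chosen with earlier results of these data known, so their counts are a description. DESeq2 called 3 (9.91% of all genes it tested) and the exact test 2 (7.54%), and 5 of the 8 had an unadjusted p below 0.05, 4 higher and 1 lower, against 25% of all tested genes. *Stat5b* rose from 43.0, 46.4 and 43.3 CPM in the controls to 102, 101 and 109 CPM among *Gp130* ecKO uteri (log2 fold change 1.23, SE 0.14, edgeR adjusted p = 0.0429). It kept the call without control 2 and lost it without any 1 of the other uteri. The legacy form of the quasi-likelihood fit did not call it either (edgeR adjusted p = 0.0593). *Jak1* had 282, 221 and 327 CPM among controls against 238, 226 and 135 CPM among *Gp130* ecKO uteri (log2 fold change −0.47, edgeR adjusted p = 0.299), with overlapping groups. *Tyk2* had a log2 fold change of 0.27 (edgeR adjusted p = 0.348). *Stat3* had 468, 320 and 262 CPM among controls against 238, 197 and 161 CPM among *Gp130* ecKO uteri (log2 fold change −0.82, edgeR adjusted p = 0.125), and its groups did not overlap.

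**Figure D5:**
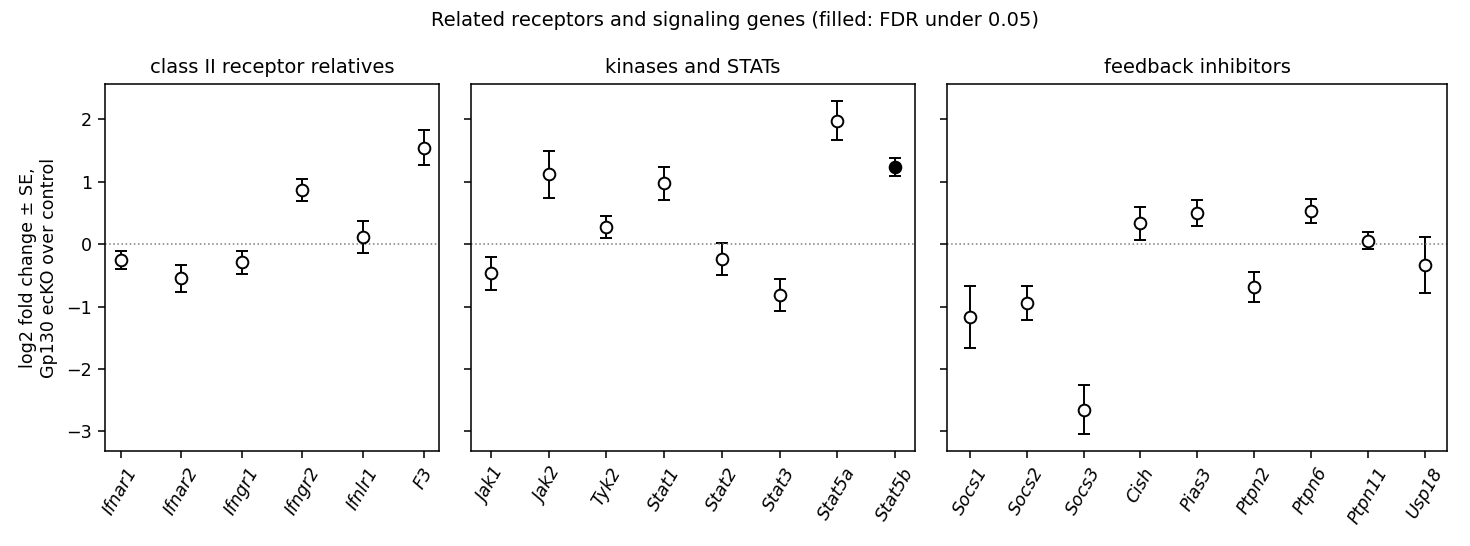
Log2 fold change with its standard error for the related receptors, the kinases and STATs and the feedback inhibitors, from edgeR's quasi-likelihood fit over 6 uteri. The filled symbol, *Stat5b*, is the one gene of these 3 lists with an FDR under 0.05, and *Socs3* has the lowest value.

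Among the 9 feedback inhibitors no gene was called by edgeR's quasi-likelihood test, 5 had an unadjusted p below 0.05 (25% of all tested genes had), 1 higher and 4 lower, and DESeq2 and the exact test called 1 each. *Socs3* had 47.5, 29.5 and 67.2 CPM among controls against 5.11, 10.8 and 6.92 CPM among *Gp130* ecKO uteri, without overlap (log2 fold change −2.65, edgeR adjusted p = 0.0548). It passed the FDR threshold without control 2 (edgeR adjusted p = 0.0142). Without any 1 of the other uteri *Socs3* did not pass it (edgeR adjusted p from 0.0960 to 0.154). *Ptpn6*, the gene of the phosphatase SHP-1, had the highest log2 fold change of this list, 0.53 (edgeR adjusted p = 0.159).

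Genes that IL-20 and IL-22 are known to induce in epithelia, such as antimicrobial and acute phase proteins, formed a list of 25. Of these, 15 were tested, 12 with a log2 fold change below 0, and the median was −0.88 against −0.05 over all tested genes. None was called by edgeR's quasi-likelihood test, 3 had an unadjusted p below 0.05, all lower, and DESeq2 called 1 and the exact test 2. *S100a9*, a calcium-binding protein of neutrophils and inflamed epithelia, had 60, 62 and 15 counts among controls against 0, 0 and 13 counts among *Gp130* ecKO uteri (log2 fold change −3.42, edgeR adjusted p = 0.106). Without *Gp130* ecKO 2 it was −2.81, and without *Gp130* ecKO 3 the remaining *Gp130* ecKO uteri were at 0 counts, so that the fitted −8.49 is no bound. *S100a8* and *S100a9* are also neutrophil markers. Of the 6 neutrophil markers 4 were tested, with *S100a8*, *S100a9* and *Retnlg* below 0 and *Ly6g* above 0, none called by edgeR's quasi-likelihood test, 3 at an unadjusted p below 0.05, 1 called by DESeq2 and 2 by the exact test. They summed to 2.40 to 7.29 CPM in the control and 0.81 to 3.48 CPM in *Gp130* ecKO, and their part in the *S100a9* values was not tested. *Cxcl5*, with a mean of 0.94 CPM, had the lowest log2 fold change of the list (edgeR adjusted p = 0.0695). It had 64, 19 and 35 counts among controls and 0 counts in all *Gp130* ecKO uteri, so its fitted −8.42 is no bound. *Bcl2l1*, an inhibitor of apoptosis, had the highest log2 fold change, 0.61 (edgeR adjusted p = 0.209). *Reg3g* and *Reg3b*, antimicrobial lectins that IL-22 induces in gut, had at most 1.70 CPM in any uterus, and *Reg3a* had 0 counts in all.

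Genes known to respond to IL-10 in myeloid cells, many of which also respond to other cytokines that act through STAT3, formed a list of 14 with 12 tested. The median log2 fold change was −0.87 against −0.05 over all tested genes, 9 of the 12 were below 0, and 7 had an unadjusted p below 0.05, 5 lower and 2 higher, against 25% of all tested genes. DESeq2 and the exact test called 5 each, and the quasi-likelihood test 1. This gene was *Bcl3*, which encodes a nuclear IκB protein. *Bcl3* fell from 54.0, 39.9 and 54.7 CPM in the controls to 2.03, 5.19 and 4.23 CPM among *Gp130* ecKO uteri (log2 fold change −3.69, SE 0.37, edgeR adjusted p = 0.0334). It kept the call without control 2 and without *Gp130* ecKO 1 and lost it without any 1 of the other uteri. *Cd163*, a receptor of macrophages that IL-10 induces, had at most 0.50 CPM in any uterus. The macrophage markers had a median log2 fold change of −0.76 with 6 of 7 below 0. Their sums are given with *Il10ra*, beside the paper's macrophage count, which went the other way. The part of macrophages in the values of this list was not tested. Over all 6 lists, 2 of 50 tested genes were called, *Stat5b* and *Bcl3*, against 0.157% of all tested genes, and 29 of the 50 did not overlap between the groups, 11 higher and 18 lower, against 31.3%. Since the lists were chosen with earlier results of these data known, no enrichment is read from these shares.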

How the data were processed

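The authors trimmed single reads of strand-specific poly(A) libraries with fastp 0.23.2, removed ribosomal RNA reads, mapped to GRCm39 with STAR 2.7.10a and counted per gene with RSEM 1.3.3. They deposited an expected count, a TPM, an FPKM and a weighted length for each gene and uterus, and the annotation version and strand setting are not given in the sources used here. For edgeR 4.0.16 in R 4.3.3, each deposited expected count was rounded. After filterByExpr (16605 genes kept) and TMM scaling, quasi-likelihood F tests, adjusted by Benjamini-Hochberg across all kept genes, set *Gp130* ecKO against control. The fit was tested on simulated data. The deposited TPM, which the authors computed per transcript length, served to compare levels between genes, and the deposited FPKM served as an alternative. Symbols and coordinates came from GENCODE M39, which holds 56017 of the 56748 identifiers. The members, lists and tests were chosen with earlier results of these data known. Named genes were all members, listed genes with an FDR under 0.05, otherwise the highest and lowest of a list with a mean of at least 1 CPM, *Jak1*, *Tyk2*, *Stat3*, *Socs3*, tested neighbours of *Il20rb* and the 5 most like patterns. Other genes with values were chosen after these were seen. Alternatives were DESeq2 1.42.0, the exact test, other scaling, filters and dispersion, a replicate block, and each uterus left out. Intervals and floors cover counting error only.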

Additional observations from a re-analysis of the deposited data

How the results depend on the processing

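The log2 fold changes of *Il20rb*, *Il10rb* and *Il10ra* kept their sign under all 14 alternatives, and that of *Il20ra* under 13. With each uterus left out, *Il20rb* was between 2.19 and 2.37, *Il10rb* between −0.64 and −0.38, *Il10ra* between −1.32 and −0.02, and *Il20ra* between −1.69 and 1.08, its reversal coming without control 1. *Nck1* reversed to 0.21 without control 1. In the control, *Il20rb* ranked 2 or 3 among the members by TPM. The number of called genes was 26. It was 105 with no filter, 1546 with DESeq2, 1252 with the exact test, 7 with the legacy form of the quasi-likelihood fit and 6 with the replicate block. With a uterus left out it was 897 without control 2 and 1 to 6 without any other. Of the genes of the pathway lists, 5, 11, 11, 1 and 0 were called with no filter, DESeq2, the exact test, the legacy form and the replicate block in order. With a uterus left out, 12 were called without control 2 and 0 to 1 without any other. The number of called members was 0 with the replicate block and 0 to 1 with a uterus left out, being 1 without control 2 and 0 without any other. That member was *Il20rb*, chosen with this contrast known, so its calls are not a result. Same-numbered uteri correlated at 0.10, 0.06 and −0.19 in their deviations from the group means across genes, so the numbers do not pair the uteri. The cause of these differences was not tested. Depth limits what can be said of *Il22ra1*, *Il22ra2* and the ligands.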
